A study of Mus musculus with 4 samples.

Results

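Feeder fibroblast matrix and contractile genes are the non-collagen genes by which connective tissue cells build, cross-link, remodel and pull on extracellular matrix. The members were chosen by name from a list of 39 symbols, matched to the symbol column of the deposited table. Of 46603 genes in the table, 38 matched, because Ccn2 is the present name of the gene listed as Ctgf. A count was present for 37 of them, and each of the 37 had a mean of at least 10 normalised counts. The remaining member, Bgn, a small proteoglycan gene on the X chromosome, is listed at 0, as are all 2601 X-linked, 1570 Y-linked and 37 mitochondrial genes of the table, so its value says nothing of its expression.

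Mouse embryonic stem cells lacking both Gsk3a and Gsk3b (Gsk3a-/-;Gsk3b-/-) and wild-type cells (Gsk3a+/+;Gsk3b+/+) were profiled by sequencing of polyadenylated RNA, with 2 biological replicates of each genotype. Both genotypes were grown with serum and leukaemia inhibitory factor over irradiated mouse embryonic fibroblasts on gelatin, so each library can hold RNA of these feeder cells. The labels describe neither the deleted alleles nor whether a line is 1 clone, and the labels and the design text give different embryonic days for the cells. The deposited table gives means of a group A and a group B without naming their genotypes, and comparisons are therefore given as group B over group A. The means could be split exactly into the reads of single libraries, called B1, B2, A1 and A2, where 1 marks the deeper library of a group and no replicate number of the labels. Library totals ranged from 112655210 to 146326307 counts. A normalised count is a read count divided by the size factor of its library. Gsk3a had 1697 in B1 and 1347 in B2, against 6353 in A1 and 7104 in A2, and Gsk3b had 5051 in B1 and 5002 in B2, against 5438 in A1 and 6285 in A2. No genotype was assigned to a group from these values.

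Fibroblasts are the main makers of interstitial matrix. They secrete collagens together with glycoproteins, proteoglycans and elastic fibre proteins, cross-link them with lysyl oxidases, and turn them over with metalloproteinases that the TIMP inhibitors hold in check. Under tension or in culture many take on a myofibroblast state, with smooth muscle actin and its partner proteins in stress fibres. In stem cell culture, irradiated fibroblasts no longer divide and supply adhesion and factors to the colonies, and they are lysed with them when RNA is prepared.

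Most members differed more between the libraries of 1 group than between the groups. All 37 members had more normalised counts in B2 than in B1, and 36 of 37 had more in A1 than in A2. Of 20465 genes averaging 10 or more, 47.4% were higher in B2 than in B1 and 49.4% higher in A1 than in A2. The median member differed by 2.08 on the log2 scale between B2 and B1 and by 0.99 between A1 and A2, against -0.021 and -0.0027 over all genes that have a symbol and average 10 or more. These ratios are on the log2(normalised count + 1) scale and compare single libraries, with no test. Of the members, 28 of 37 had the order B2, A1, A2, B1 from high to low, an order held by 3.89% of all genes. It was not particular to the members, since 10 of 13 fibroblast collagens and 16 of 33 other matrix and mesenchymal genes had it. So did 7 of 18 further matrix proteases and inhibitors, against 0 of 12 pluripotency markers. This order was chosen after the values were seen. In bulk RNA, fewer fibroblasts, less RNA per fibroblast and expression of a member by other cells of the culture cannot be told apart.

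The summed level of the 37 members was 169468 in B1 and 455679 in B2, against 313875 in A1 and 229494 in A2 normalised counts. Fibronectin made up much of this sum, and without Fn1 it was 79665 in B1 and 253585 in B2, against 187039 in A1 and 109139 in A2. The groups overlap in both sums, with B2 highest and B1 lowest. By the authors' deposited table, 2 of 37 members passed an adjusted p of 0.05, Fbln1 higher and Pcolce lower in group B. Over all 30237 genes with a count, 3.46% passed (1.54% higher and 1.92% lower). That share includes genes of low mean, which hardly ever passed, while every member averages 10 or more. Of 20426 genes that have a symbol and average 10 or more, 465 passed higher and 581 lower. The groups did not overlap for 5 of 37 members, or 13.5%, against 52.5% of the 20465 genes. Fbln1 and Cyr61 were higher in both B libraries, as were 26.4% of genes, and Mfap5, Pcolce and Mmp3 were lower in both, as were 26% of genes.

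**Figure D1:**
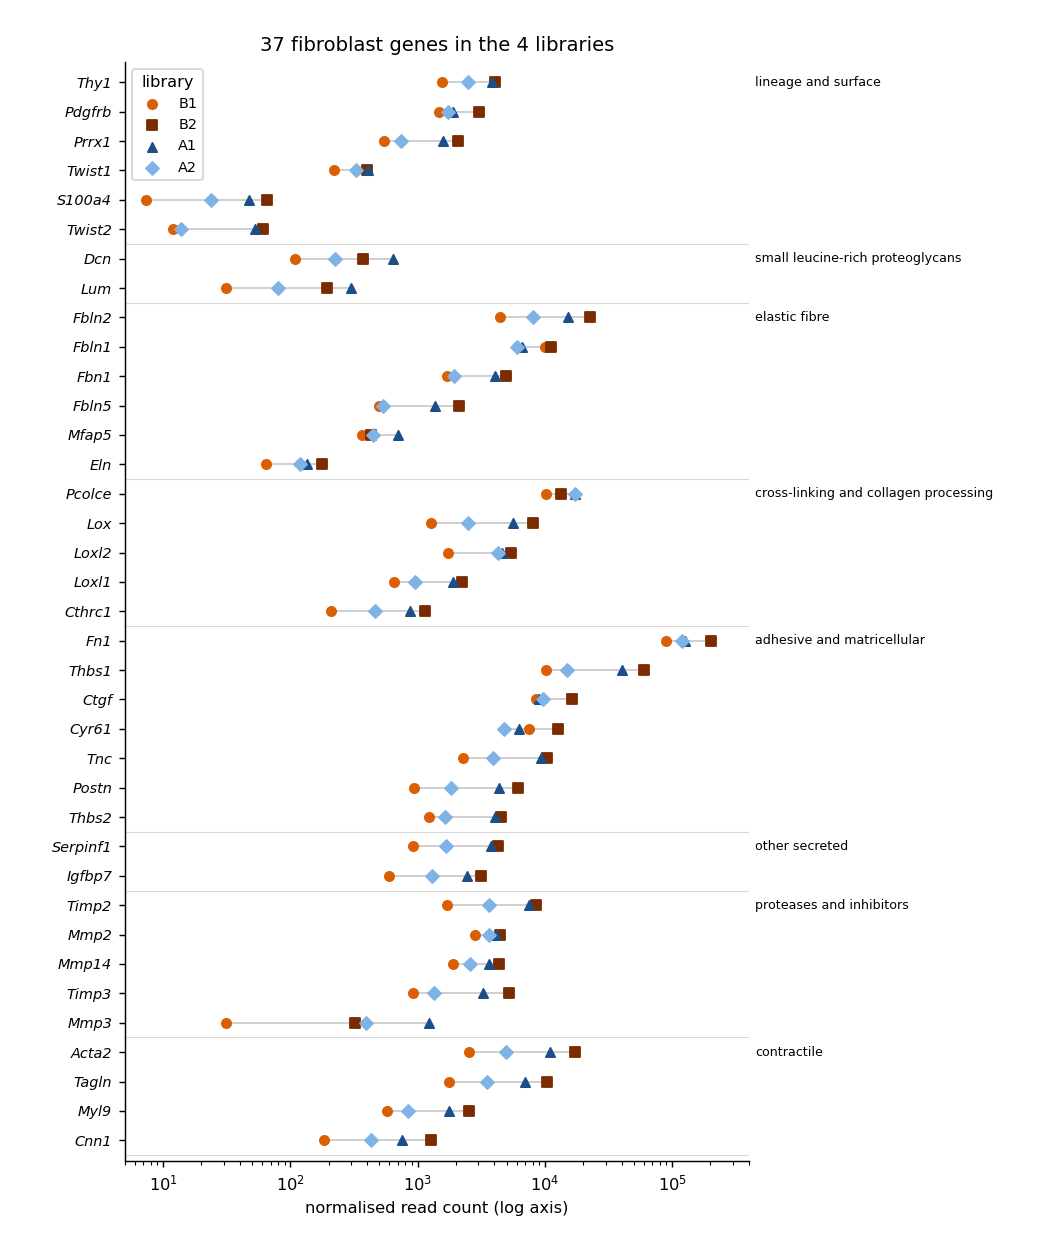
Normalised read counts (log axis) of the 37 members with a count, 1 symbol per library, grouped by role. B1 is the lowest library for 35 of 37 members and B2 the highest for 31, and 28 have the order B2, A1, A2, B1.

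Lineage and surface genes had 0 of 6 members past the threshold, and their groups overlapped. Thy1, a glycosyl-phosphatidylinositol-anchored surface protein by which fibroblasts are often sorted, had 1545 in B1 and 4059 in B2, against 3806 in A1 and 2496 in A2. Pdgfrb, the receptor for platelet-derived growth factor B on mesenchymal cells, had 1465 in B1 and 3011 in B2, against 1896 in A1 and 1744 in A2. B2 was the highest library for both and B1 the lowest. Prrx1, a homeobox factor of limb and connective tissue mesenchyme, had 545 in B1 and 2087 in B2, against 1583 in A1 and 739 in A2. Among the basic helix-loop-helix factors, Twist1 had 222 in B1 and 401 in B2, against 409 in A1 and 329 in A2. Twist2, its close relative of the dermis, had 11.9 in B1 and 61.5 in B2, against 52.5 in A1 and 13.8 in A2. Both Twist genes had B1 as the lowest library, and the Twist2 counts of B1 and A2 were 13 and 14 reads. S100a4, a calcium-binding protein once named fibroblast-specific protein, had 7.33 in B1 and 65.0 in B2, against 47.0 in A1 and 23.7 in A2, from 8, 55, 51 and 24 reads in the same order. Its exons share 302 bases with a gene model on the same strand, and Twist2 exons share 1477 bases with a model on the opposite strand. Library construction kept strand, per the labels, but whether counting used it is not given, so these low values are uncertain. The same limit holds for Fbn1, which shares 2442 exon bases with an opposite-strand model, and for Ctgf, which shares 665.

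Small leucine-rich proteoglycans bind collagen fibrils and limit their width. Decorin (Dcn) had 109 in B1 and 371 in B2, against 635 in A1 and 222 in A2. Lumican (Lum) had 31.2 in B1 and 195 in B2, against 302 in A1 and 80.1 in A2. For both genes A1 was the highest library, above B2, which sets them apart from the order of most members. The authors' deposited table lists -0.84 for Dcn and -0.76 for Lum as log2 fold changes, neither of which passed (adjusted p 1).

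Elastic fibre genes included the only member past the threshold in a higher direction. Fbln1 (ENSMUSG00000006369, chromosome 15, 85205949 to 85286535, mm10), a calcium-binding glycoprotein of basement membranes and elastic fibres, had 9927 in B1 and 11091 in B2, against 6564 in A1 and 6081 in A2. The groups did not overlap, and B2 exceeded B1 by a log2 ratio of only 0.16, and A1 exceeded A2 by 0.11. The authors' deposited table gives Fbln1 a fold change of 1.66 (adjusted p 0.00463). By limma, applied to the recovered reads, the log2 difference was 0.73 (SE 0.11, adjusted p = 0.0423). With all libraries it was the single member that limma called, where 2.01% of 20465 genes passed. Endoderm markers, whose summed level was 427651 in B1 and 221916 in B2, against 148564 in A1 and 132282 in A2, had the same order of groups as Fbln1, with B1 in place of B2 as the highest library. That list held 18 genes, of which none was at 0 and 1 of 17 averaging 10 or more passed, the transcription factor gene Foxa1, which was higher in group B. Macrophage markers, summed, were also higher in both B libraries. The part of either list in the Fbln1 and Cyr61 values was not tested.

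The other fibulins did not share the Fbln1 pattern. Fbln2, which links fibrillin and basement membrane proteins, had 4434 in B1 and 22586 in B2, against 15182 in A1 and 8107 in A2. Fbln5, which guides elastin onto microfibrils, had 494 in B1 and 2099 in B2, against 1373 in A1 and 539 in A2. B2 and A1 were the high libraries for both. Fibrillin 1 (Fbn1), the main microfibril protein, had 1712 in B1 and 4979.8 in B2, against 4084 in A1 and 1930.1 in A2. Elastin itself (Eln) had 64.2 in B1 and 176 in B2, against 134 in A1 and 119 in A2, a low level for a gene with 8098 bases of annotated exons. Mfap5, a microfibril-associated glycoprotein, had 363 in B1 and 433 in B2, against 697 in A1 and 443 in A2. Mfap5 was lower in both B libraries, by a narrow margin between B2 and A2, and did not pass in the authors' deposited table (log2 -0.52, adjusted p 0.866).

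Collagen processing and cross-linking genes included the one member called lower. Pcolce (ENSMUSG00000029718, chromosome 5, 137605103 to 137613784, mm10), the enhancer of the enzyme that trims procollagen ends, had 10217 in B1 and 13316 in B2, against 17315 in A1 and 17212 in A2. Both B libraries were below both A libraries, and the A libraries were nearly equal. The authors' deposited table gives Pcolce a fold change of 0.682 (adjusted p 0.0433). By limma it did not pass, and the log2 difference was -0.57 (SE 0.14, adjusted p = 0.105). The summed pluripotency markers were also lower in both B libraries than in both A libraries, and their part in the Pcolce result was not tested. Pcolce exons share 112 bases with Fbxo24 on the same strand, out of 3823.

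The lysyl oxidases, copper enzymes that start the cross-links of collagen and elastin, had overlapping groups. Lox had 1276 in B1 and 8036 in B2, against 5664 in A1 and 2488 in A2. Loxl1 had 657 in B1 and 2237 in B2, against 1908 in A1 and 952 in A2, a smaller gap within each group than that of Lox. Loxl2 had 1732 in B1 and 5426 in B2, against 4576 in A1 and 4254 in A2, so that B1 alone lay apart while the other libraries were close. Cthrc1, a secreted protein that limits collagen deposition after vascular injury, had 207 in B1 and 1143 in B2, against 864 in A1 and 465 in A2. None of these 4 genes passed the threshold, and in the authors' deposited table their log2 values lay between -0.30 for Loxl2 and 0.19 for Lox.

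Adhesive and matricellular genes held the most abundant members. Per 1000 bases of exon, Fn1 had 7685 in B1 and 17295 in B2, against 10855 in A1 and 10299.9 in A2 normalised counts, the highest level per length of any member in each library. Thbs1 followed in B2 and A1, with 9940.5 and 6658 per 1000 bases. At the low end, Twist2 had 3.75 in B1 and 19.4 in B2, against 16.5 in A1 and 4.36 in A2 per 1000 bases.

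In normalised counts not divided by length, fibronectin (Fn1), the glycoprotein that integrins bind, had 89803 in B1 and 202094 in B2, against 126836 in A1 and 120355 in A2. The A libraries of Fn1 were nearly equal, while the B libraries lay on either side of them. Thrombospondin 1 (Thbs1), an activator of latent TGF-beta, had 10179.9 in B1 and 60369 in B2, against 40435 in A1 and 14882 in A2. Thrombospondin 2 (Thbs2), a regulator of fibril assembly, had 1228 in B1 and 4505 in B2, against 4086 in A1 and 1653 in A2. Both thrombospondins had the order B2, A1, A2, B1. Tenascin C (Tnc), a glycoprotein of wounds and developing mesenchyme, had 2254 in B1 and 10454 in B2, against 9391 in A1 and 3923 in A2. Periostin (Postn), a matricellular protein of tendon, skin and bone surfaces, had 944 in B1 and 6162 in B2, against 4374 in A1 and 1814 in A2. For neither gene did the groups separate, and the highest and lowest libraries were both of group B.

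The 2 CCN genes encode secreted proteins that bind integrins and growth factors and are classical targets of YAP and TEAD. Neither had the order B2, A1, A2, B1 that the 5 other adhesive genes had, and the 2 were not alike. Ctgf had 8551 in B1 and 16259 in B2, against 9058 in A1 and 9615 in A2, and it was the only member with fewer counts in A1 than in A2. As for Fn1, the A libraries of Ctgf were close and the B libraries lay on either side of them. Cyr61 had 7564 in B1 and 12564 in B2, against 6268 in A1 and 4768 in A2, without overlap of the groups. The authors' deposited table gives Cyr61 a fold change of 1.82 that did not pass (adjusted p 0.675), and limma gave 0.83 on the log2 scale (SE 0.26, adjusted p = 0.158). The 250 bases before the Cyr61 start (chr3:145649986-145650235, minus strand, GRCm38.p6, RefSeq) are shown 5′ to 3′ on the strand of the gene, as the promoter of the CCN gene whose groups did not overlap. Capitals mark the reverse complement of GGAATG, a motif that TEAD factors bind, which begins 103 bases before the start.
Cyr61: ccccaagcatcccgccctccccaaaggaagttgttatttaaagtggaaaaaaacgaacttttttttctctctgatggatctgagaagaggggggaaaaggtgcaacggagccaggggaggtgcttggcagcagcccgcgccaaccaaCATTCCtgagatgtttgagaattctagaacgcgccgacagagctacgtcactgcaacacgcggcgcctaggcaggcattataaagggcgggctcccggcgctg

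GGAATG was searched on both strands of the 250 bases before each start in the RefSeq table. Of 38 members, 23 had an entry there, and 3 of the 23 held the motif, namely Acta2, Cyr61 and Prrx1, against 12.6% of all 32851 promoter entries. These 3 genes differed in their values, since Acta2 and Prrx1 had the order of most members and Cyr61 did not. A match of letters is a description and shows no binding.

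Other secreted members followed the common order. Serpinf1, the anti-angiogenic pigment epithelium-derived factor, had 918 in B1 and 4256 in B2, against 3747 in A1 and 1664 in A2. Igfbp7, a secreted protein of the insulin-like growth factor binding family, had 599.6 in B1 and 3153 in B2, against 2430.2 in A1 and 1303 in A2. In the authors' deposited table the log2 fold change was -0.065 for Serpinf1 and 0.0075 for Igfbp7, while B2 exceeded B1 by 4.64-fold for Serpinf1 and 5.26-fold for Igfbp7.

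Proteases and their inhibitors included the member with the largest fold change. Mmp3 (ENSMUSG00000043613, chromosome 9, 7445822 to 7455975, mm10), the stromelysin that cuts proteoglycans and activates other metalloproteinases, had 31.2 in B1 and 324 in B2, against 1234 in A1 and 391 in A2. Both B libraries were below both A libraries, yet the libraries differed within each group by 10.4-fold (B2 over B1) and 3.16-fold (A1 over A2). The authors' deposited table gives Mmp3 a log2 fold change of -2.19 that did not pass (adjusted p 0.682). In limma it was -2.77 (SE 1.11, adjusted p = 0.239). The 250 bases before the Mmp3 start (chr9:7445572-7445821, plus strand, GRCm38.p6, RefSeq) are shown because the gene lay farthest from the other members. Capitals mark TGANTCA, the motif of AP-1 factors, 46 bases before the start.
Mmp3: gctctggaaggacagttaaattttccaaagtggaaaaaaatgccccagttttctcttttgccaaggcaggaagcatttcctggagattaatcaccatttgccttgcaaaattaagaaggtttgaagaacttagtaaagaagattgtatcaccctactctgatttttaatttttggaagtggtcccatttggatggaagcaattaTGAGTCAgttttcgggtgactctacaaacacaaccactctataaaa

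Searched on both strands in the same way, TGANTCA was found in 1 of the 23 members with an entry, Mmp3, and in 6.75% of all promoter entries. Mmp2, the gelatinase of resting fibroblasts, had 2826 in B1 and 4421 in B2, against 4111 in A1 and 3625 in A2. Mmp14, the membrane protease that activates it, had 1888 in B1 and 4324 in B2, against 3624 in A1 and 2567 in A2. The range over the libraries was narrower for these 2 genes than for Mmp3. Timp2, an inhibitor that also takes part in Mmp2 activation, had 1712 in B1 and 8476 in B2, against 7542 in A1 and 3617 in A2. Timp3, the matrix-bound inhibitor, had 915 in B1 and 5234 in B2, against 3243 in A1 and 1349.7 in A2. Both inhibitors had B2 as the highest and B1 as the lowest library, and 0 of these 4 genes passed. Timp3 exons share 1733 bases with Syn3 on the opposite strand, so with the counting unknown reads of the pair cannot be told apart.

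Contractile genes had the widest gap between the B libraries of any role group. Their sum was 5037 in B1 and 31313 in B2, against 20408 in A1 and 9731 in A2, and B2 exceeded B1 by 6.22-fold and A1 exceeded A2 by 2.1-fold. Acta2, the smooth muscle actin of stress fibres, had 2517 in B1 and 17147 in B2, against 10927 in A1 and 4954 in A2. Tagln, the actin-binding protein transgelin, had 1763 in B1 and 10372 in B2, against 6958 in A1 and 3509 in A2. Both had the order of most members. Myl9, a regulatory light chain of non-muscle and smooth muscle myosin, had 571 in B1 and 2510.0 in B2, against 1764 in A1 and 840.5 in A2. Cnn1, the actin-binding protein calponin, had 185 in B1 and 1284 in B2, against 758 in A1 and 428 in A2. None of the 4 passed the threshold, with log2 fold changes of 0.21 to 0.31 and an adjusted p of 1 in the authors' deposited table. Tagln exons share 1241 bases with a model on the opposite strand and 108 with Pcsk7. Smooth muscle markers fixed as a list of 6 (Myh11, Actg2, Lmod1, Myocd, Des and Smtn) summed to 7061 in B1 and 10354 in B2, against 8953 in A1 and 8429 in A2, with none at 0, 5 at a mean of at least 10 and 0 past the threshold. Des and Smtn made up most of this sum in each library. The median of the 5 was 180 in B1 and 1305 in B2, against 901 in A1 and 364 in A2. Of the 5, 3 had the order of most members, and the largest log2 ratio of B2 over B1 was 3.07. The part of the smooth muscle markers in the contractile values was not tested.

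Promoters of contractile genes are shown because these members had a common order of libraries, though 28 of 37 members in all had it. In each, the 250 bases before the start are given 5′ to 3′ on the strand of the gene, from RefSeq on GRCm38.p6, for Myl9 (chr2:156775214-156775463, plus strand) and Acta2 (chr19:34255374-34255623, minus strand). Capitals mark a CArG box, the site of serum response factor, 161 bases before the start of Myl9, and GGAATG, 146 bases before the start of Acta2.
Myl9: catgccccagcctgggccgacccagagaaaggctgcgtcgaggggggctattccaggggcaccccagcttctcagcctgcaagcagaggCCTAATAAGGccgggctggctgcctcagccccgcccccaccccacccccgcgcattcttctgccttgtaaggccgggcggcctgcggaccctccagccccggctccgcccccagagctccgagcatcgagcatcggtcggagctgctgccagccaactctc
Acta2: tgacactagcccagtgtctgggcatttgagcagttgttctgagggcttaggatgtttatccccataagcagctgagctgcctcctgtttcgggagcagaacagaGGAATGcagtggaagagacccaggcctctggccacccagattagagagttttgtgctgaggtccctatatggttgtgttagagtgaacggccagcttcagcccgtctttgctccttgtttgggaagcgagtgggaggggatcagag

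The CArG box in its strict form, searched on both strands, was found in 1 of the 23 members with an entry and in 1.47% of all promoter entries. Tagln had no entry. That other members lack these letters in this window says nothing of the factor.

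The gaps between libraries were shared across the groups. The log2 ratios of B2 over B1 and of A1 over A2 were set against each other across genes. Over the 37 members, Pearson r was 0.755 and Spearman rho 0.662. Over the 13 fibroblast collagens they were 0.471 and 0.308, and over 20465 genes -0.023 and -0.107. These are correlations across genes that share the same 4 libraries and are given as a description. B2 over B1 had a log2 ratio of 1 or more in 30 of 37 members and in 6.12% of all genes. A1 over A2 did so in 18 of 37 members and in 3.87% of all genes. The members not among those 30, namely Twist1, Fbln1, Mfap5, Pcolce, Ctgf, Cyr61 and Mmp2, were under a log2 ratio of 1 in both. Loxl2, Eln, Pdgfrb and Fn1 had a log2 ratio of 1 or more for B2 over B1 and of under 0.2 for A1 over A2.

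**Figure D2:**
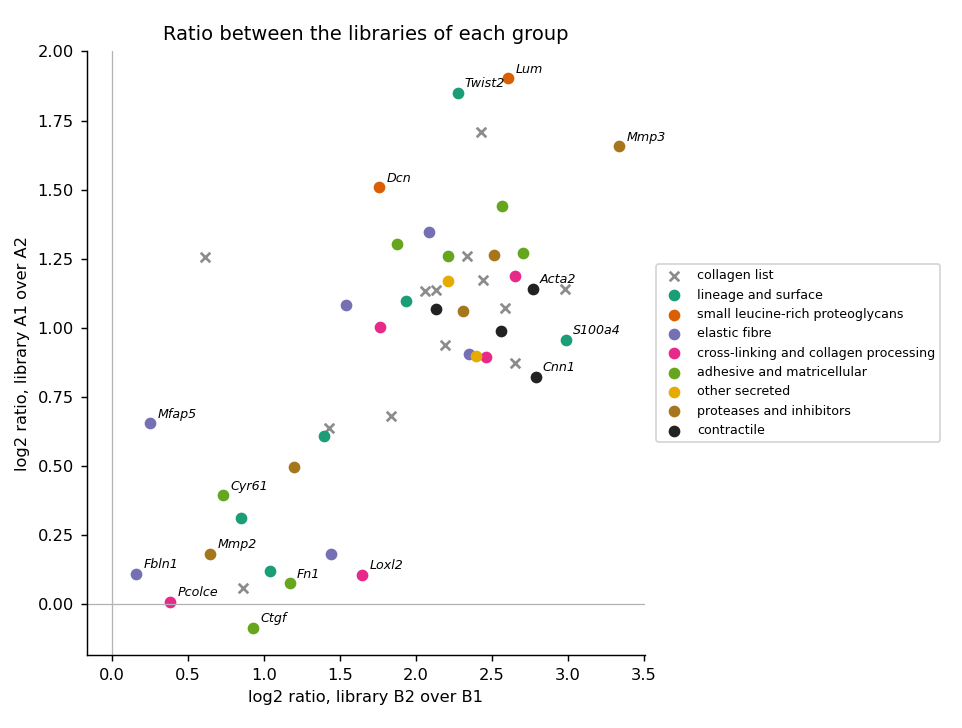
Log2 ratio of library B2 over B1 (horizontal) against that of A1 over A2 (vertical) for the 37 members, coloured by role, and the 13 collagens (crosses). All members lie right of 0, and 36 of 37 lie above 0, from Fbln1 and Pcolce near the origin to Lum and Mmp3 at the upper right.

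Gene lists for other matrix genes and for other cell types were set beside the members. The 13 fibroblast collagens summed to 36933 in B1 and 196313 in B2, against 138202 in A1 and 66652 in A2, the same order of libraries as the members, and 0 of 13 passed. Col1a1 and Col1a2, the chains of type I collagen, did not pass in the authors' deposited table, at 0.39 and 0.26 on the log2 scale. Of 33 other matrix and mesenchymal genes, 1 rose and 1 fell. The library order of most members was held by 16 of the 33, but by neither called gene. Serpinh1, the collagen chaperone, had 51891 in B1 and 36747 in B2, against 20309.9 in A1 and 15227 in A2 (adjusted p 0.0167, authors' deposited table). Spon2, a secreted matrix protein, had 165 in B1 and 196 in B2, against 358 in A1 and 314 in A2 (adjusted p 0.0413, authors' deposited table). Of 18 further matrix proteases and inhibitors at a mean of at least 10, 1 rose, the urokinase gene Plau (log2 1.23 and adjusted p 0.000844 in the authors' deposited table). Of 20 genes of the TGF-beta pathway and YAP-TEAD targets, 1 fell, the LIM protein gene Ajuba (log2 fold change -0.999 and adjusted p 1.07e-05 in the authors' deposited table). Of 19 SRF-dependent and actomyosin genes at a mean of at least 10, 0 passed, and their median log2 ratio of B2 over B1 was 0.33, against 2.66 for the contractile members. Actb and Actg1, the actins of all cells, are in that list, and neither passed (log2 0.12 and 0.22 in the authors' deposited table).

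Pluripotency markers summed to 850879 in B1 and 852376 in B2, against 918293 in A1 and 980789 in A2, with 0 of 12 higher and 2 lower, Utf1 and Fgf4. Macrophage markers summed to 5324 in B1 and 5609.9 in B2, against 3577 in A1 and 3152 in A2, with 5 of 16 higher (Ctss, Mpeg1, Lyz2, Lcp1 and Ptprc) and 0 lower, and none at 0. Neither list had the library order of the fibroblast members. Endothelial markers had 1 of 8 lower, Tie1, and cartilage markers 1 of 7 lower, Acan. Schwann and neural crest markers had 1 of 4 lower, Foxd3, a gene that stem cells express too. Skeletal muscle and mesothelium markers each had 0 of 5 past the threshold, and Myf5 was at 0. Their most abundant genes had log2 fold changes of 0.032 for Des and -0.18 for Myh3 of muscle, and 0.45 for Krt19 and 0.75 for Lrrn4 of mesothelium, in the authors' deposited table.

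**Figure D3:**
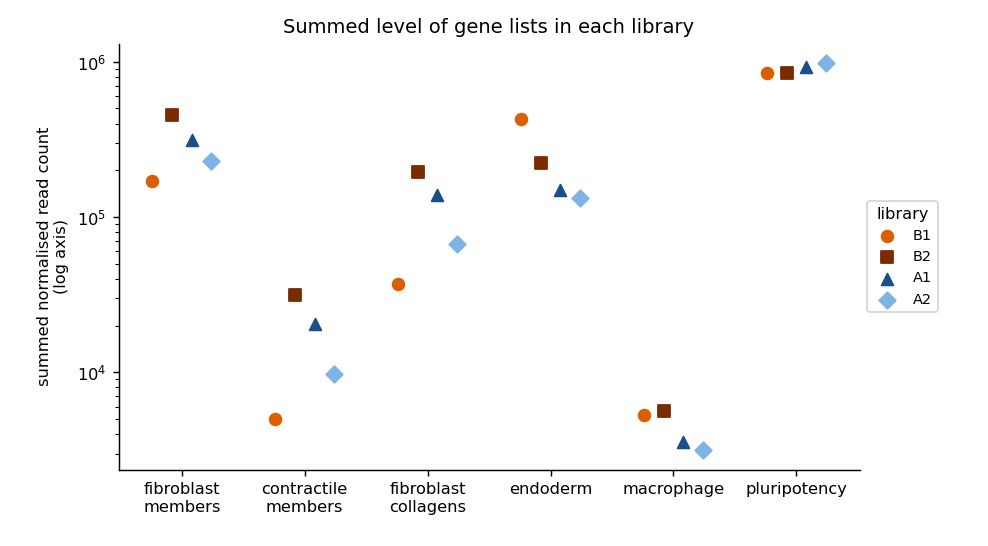
Summed normalised read counts (log axis) of 6 gene lists in each library. The members, their contractile subset and the collagens have the order B2, A1, A2, B1, the endoderm list has B1 highest, and the pluripotency list differs little between libraries.

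The direction of the comparison between groups depended on the libraries used. With all libraries, 23 of 37 members had a log2 fold change above 0 in the authors' deposited table, and 50.1% of all genes did. The median over the members was 0.033, against 0.01 over all such genes averaging 10 or more. In limma, which averages log values, the median over the members was -0.21, with 10 of 37 above 0; a ratio of means weights the higher library of a pair more. Without B1, 33 of 37 members were above 0 in limma with a median of 0.80. Without B2, 35 of 37 were below 0 with a median of -1.13. For 31 of 37 members the sign of the log2 fold change was not the same in the 4 fits that left out 1 library, and 6 kept 1 sign, namely Fbln1 and Cyr61 above 0 and Dcn, Mfap5, Pcolce and Mmp3 below 0.

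Without B1, limma called 4 of 37 members, all higher (Fbln1, Fn1, Ctgf and Cyr61), against 4.87% of 20465 genes. Without B2 it called 5, with Fbln1 higher and Pcolce, Loxl2, Fn1 and Mmp3 lower, against 5.43% of genes. Fn1 thus had opposite signs, at 0.71 without B1 and -0.46 without B2 in limma. In both fits the spread came only from A1 against A2, so the calls do not measure the spread of group B. For Fn1 the log2 ratio was 0.076 for A1 over A2 and 1.17 for B2 over B1. Without B2, limma gave -4.43 for Mmp3, -1.35 for Loxl2 and -0.76 for Pcolce on the log2 scale. Without B1, it gave 1.20 for Cyr61 and 0.80 for Ctgf. Fbln1 was called higher with all libraries, without B1 and without B2. Without A1 or without A2 limma called 0 of 20465 genes, with 2420 and 2034 at an unadjusted p under 0.05, of which 3 and 4 were members.

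**Figure D4:**
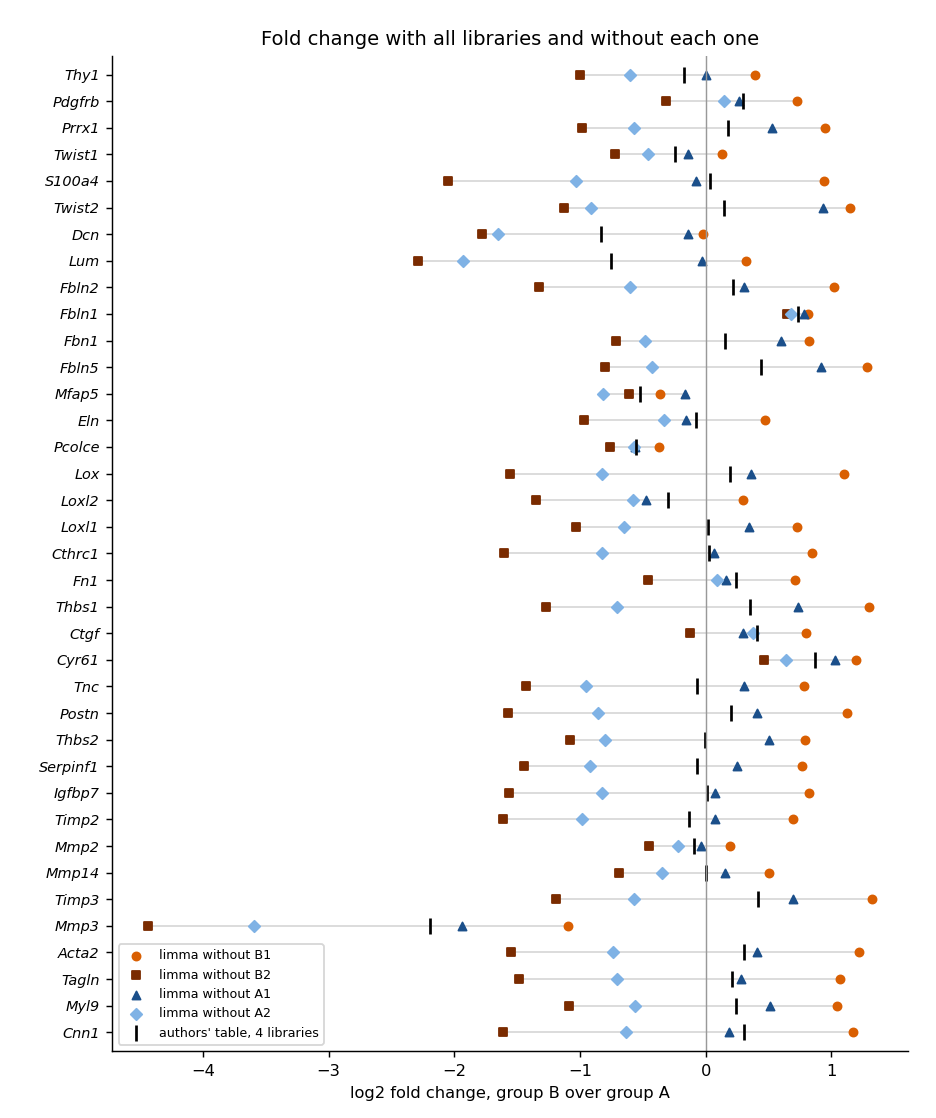
Log2 fold change of group B over group A for each member, from the authors' deposited table with 4 libraries (bars) and from limma without each library (symbols). Values without B1 mostly lie at the right and those without B2 at the left, while Fbln1 keeps a narrow range above 0 and Mmp3 a wide range below 0.

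Since most members shared 1 order of libraries, each was also expressed relative to the summed collagens of its library, a scale chosen after the values were seen. On this scale the contractile genes were nearly level. Tagln had 47.7 in B1 and 52.8 in B2, against 50.3 in A1 and 52.6 in A2 per 1000 collagen counts, and Acta2 had 68.2 in B1 and 87.3 in B2, against 79.1 in A1 and 74.3 in A2. Fbln2, outside the contractile group, had 120.0 in B1 and 115 in B2, against 109.9 in A1 and 122 in A2. The groups did not overlap for 11 of 37 members, against 4.58% of all genes. Of the 11, 8 were lower in group B, as were 1.69% of genes, and 3 were higher, as were 2.89%. A gene at equal levels in all libraries overlaps on this scale, since the collagen sums do, so the shares are not like for like. Those lower were S100a4, Dcn, Lum, Cthrc1, Serpinf1, Igfbp7, Timp2 and Mmp3, and those higher were Fbln5, Timp3 and Myl9. Some were separated by almost nothing. The nearest values were 12.79 in B2 and 12.76 in A1 for Myl9, and 24.85 in B1 and 24.97 in A2 for Serpinf1. For S100a4 they were 0.331 in B2 and 0.340 in A1, from 55 and 51 reads. Mmp3 had the widest gap between groups, with 0.844 in B1 and 1.65 in B2, against 8.93 in A1 and 5.86 in A2 per 1000 collagen counts. For Lum the values were 0.844 in B1 and 0.994 in B2, against 2.19 in A1 and 1.2 in A2. Among the higher, Timp3 had 24.8 in B1 and 26.7 in B2, against 23.5 in A1 and 20.2 in A2, a gap smaller than that within the A libraries. On this scale Fbln1 and Pcolce, the called members, overlapped between the groups, with 269 and 56.5 in group B against 47.5 and 91.2 in group A for Fbln1. No test was made on this scale.

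**Figure D5:**
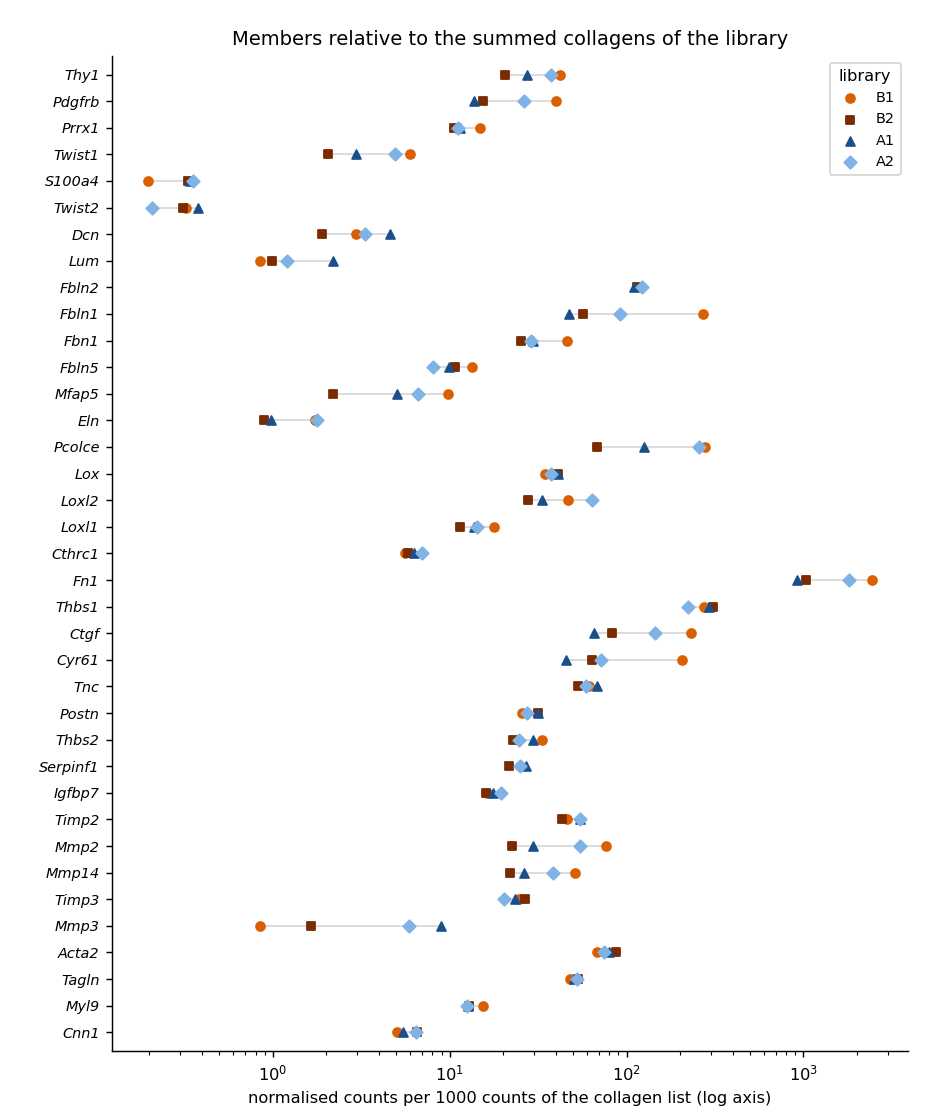
Normalised counts of each member per 1000 counts of the collagen list in the same library (log axis). Contractile genes, Fbln2, Lox and Postn have nearly equal values in the 4 libraries, and Mmp3 is lower in both B libraries. B1, which has the lowest collagen sum, is highest for Fbln1, Cyr61 and Fn1. The same holds for Pcolce, Ctgf, Thy1, Mmp2 and other members.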

How the data were processed

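Polyadenylated RNA of 4 samples was sequenced, 2 Gsk3a-/-;Gsk3b-/- and 2 wild type. The submitters' processing notes name STAR, DESeq and mm10, with no version; how reads were counted, by which annotation and strand, is not given in the sources used here. Per the file headers, the authors deposited per gene a signal (mean of read counts over size factors, for all libraries and for each group), the ratio of the group means (fold change), its log2, and a p-value with its adjusted p-value. The deposited adjusted p-value, with a threshold of 0.05, was used as the test, since the file holds no single samples.

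Each group mean was split into whole reads of 2 libraries, within 1e-06 of whole in group A (28616 genes) and group B (28353). For 1700 genes in A and 5 in B another pair fell inside that limit too, and the nearest, at least 20.5 times closer, was used. The split cannot tie a library to a replicate number. Tests on these counts (limma 3.58.1 in R 4.3.3, log2(normalised count + 1), mean of at least 10, mean-variance trend, two-sided, Benjamini-Hochberg adjusted over all genes tested) are alternatives, and fold changes on that scale understate changes of low genes. The procedures were tested on simulated data with the same relative spread for every gene. That simulation held no gap shared by many genes between the libraries of a group, so it does not cover the pattern of the members. Exon lengths and positions came from GENCODE M21 (mm10). Members and lists were chosen with earlier results of these data known. Every member is named, and from each other list the called genes of lowest adjusted p, at most 4, or else the 2 of highest mean; Ptprc, a further called macrophage gene, and the remaining smooth muscle markers are named beside their counts. With 2 libraries in a group, the spread between them and not the depth limits precision. Alternatives were other pseudocounts, filters and scalings, and leaving out each library.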

Additional observations from a re-analysis of the deposited data

How the results depend on the processing

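In limma on the recovered counts 411 genes and 1 member passed, against 1047 and 2 in the authors' deposited table. With a pseudocount of 0.5 it was 397 genes and with 5 it was 495. With no filter it was 412, with a mean of at least 50 it was 439, with total-count scaling 448 and with upper-quartile scaling 570. The member that passed was Fbln1 in each of these fits. Leaving out 1 library gave 0 to 1111 genes and 0 to 5 members, and a median log2 fold change of the members of -1.13 to 0.80. Called Pcolce (-0.57 in limma, adjusted p = 0.105) lost its call in limma with all libraries. With limma 13 members that did not pass changed sign, to -0.019 for Prrx1, -0.55 for S100a4, -0.15 for Fbln2, -0.23 for Lox, -0.15 for Loxl1, -0.38 for Cthrc1, -0.22 for Postn, -0.37 for Igfbp7, -0.094 for Mmp14, -0.16 for Acta2, -0.21 for Tagln, -0.024 for Myl9, -0.22 for Cnn1. A ratio of means gives more weight to the higher library than limma does. Both are calculated from the same normalised counts, limma after adding 1, so these changes of sign lie in the calculation. Leaving out 1 library gave log2 fold changes of both signs for 31 members. Among lineage and surface genes they ran from -0.996 to 0.40 for Thy1, -0.31 to 0.73 for Pdgfrb, -0.99 to 0.95 for Prrx1, -0.72 to 0.13 for Twist1, -2.05 to 0.94 for S100a4, -1.13 to 1.15 for Twist2. Among small leucine-rich proteoglycans genes they ran from -2.29 to 0.32 for Lum. Among elastic fibre genes they ran from -1.32 to 1.03 for Fbln2, -0.71 to 0.83 for Fbn1, -0.80 to 1.29 for Fbln5, -0.97 to 0.48 for Eln. Among cross-linking and collagen processing genes they ran from -1.56 to 1.10 for Lox, -1.35 to 0.30 for Loxl2, -1.03 to 0.73 for Loxl1, -1.61 to 0.85 for Cthrc1. Among adhesive and matricellular genes they ran from -0.46 to 0.71 for Fn1, -1.27 to 1.30 for Thbs1, -0.13 to 0.80 for Ctgf, -1.43 to 0.78 for Tnc, -1.58 to 1.13 for Postn, -1.08 to 0.79 for Thbs2. Among other secreted genes they ran from -1.44 to 0.77 for Serpinf1, -1.57 to 0.82 for Igfbp7. Among proteases and inhibitors genes they ran from -1.61 to 0.70 for Timp2, -0.45 to 0.20 for Mmp2, -0.69 to 0.50 for Mmp14, -1.19 to 1.32 for Timp3. Among contractile genes they ran from -1.55 to 1.22 for Acta2, -1.49 to 1.07 for Tagln, -1.09 to 1.04 for Myl9, -1.62 to 1.17 for Cnn1. Summed levels and the ratios between libraries moved by less than their spread with total-count and upper-quartile scaling. Scaled to the collagens, groups did not overlap for 11 members in place of 5, some of them by a very narrow margin. That setting was added after the values were seen. No paired analysis was possible because the recovered libraries carry no replicate number. No fit with edgeR or DESeq2 was run, and where 1 library was left out, the lone library of its group was assumed to vary like the other group. The labels do not say whether replicates came from separate lines, so p-values measure only the spread between these samples.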

Other observations

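Of 20465 genes averaging 10 or more, 102 had B2 at least 4-fold above B1 and A1 at least 2-fold above A2 on the log2(normalised count + 1) scale, and 13 members and 7 collagens were among them. None of the 102 passed the authors' threshold. The protein-coding genes with the highest means among them that no list held, chosen after their values were seen, were Ptn, Csf1, Cxcl12, Mgp, Cdh11, Cd248, Ccdc80, Lrrc32, Itga11 and Wisp1. Cxcl12, the chemokine that connective tissue cells supply to blood stem cells, had 849 in B1 and 3443 in B2, against 2664 in A1 and 1077 in A2. Csf1, the growth factor of macrophages, had 784 in B1 and 3679 in B2, against 3124 in A1 and 1279 in A2. Mgp, an inhibitor of matrix calcification, had 331 in B1 and 3001 in B2, against 3330.2 in A1 and 1153 in A2, with A1 above B2. Cd248, the surface protein endosialin of fibroblasts and pericytes, had 426 in B1 and 2478 in B2, against 1651 in A1 and 793 in A2. No pluripotency, endoderm or macrophage marker was among the 102 genes.

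Every gene of chromosomes X and Y and of the mitochondrial genome is listed at 0 in the authors' deposited table. Besides Bgn, this takes in Timp1 and Flna, fixed in the lists of matrix inhibitors and actomyosin genes. Their levels are not analysed here.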
